A study of Mus musculus with 9 samples.

Results

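The genes described here are 9 markers of the enteroendocrine cells of the colon, taken from the deposited table by gene name, of 55401 genes in it. They are 3 peptide hormones of colonic L cells (Gcg, Insl5 and Pyy), 2 peptide hormones known mainly from the small intestine (Sct and Cck), Tph1 for serotonin synthesis, the granule proteins Chga and Chgb, and the lineage transcription factor Neurod1. They were measured by RNA sequencing of colonic tissue of mice with the WT genotype, in 3 groups of 3 libraries. The first group was treated with berberine, a plant alkaloid; its diet and any AOM/DSS are not given in its labels. The second group received a high-fat diet with AOM/DSS, and the third a chow diet with AOM/DSS. AOM/DSS is a common short form of azoxymethane, a carcinogen, given with dextran sulfate sodium, which injures the colon epithelium. Strain, sex, age, dose and whether the 9 libraries came from 9 animals are not given in the sources used here, so the p-values measure only the spread between these libraries, which may be technical. The study's question, from its title, is how expression changes where berberine is used against tumours.

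Enteroendocrine cells are scattered hormone-secreting cells of the gut epithelium that arise from crypt stem cells through Neurog3 and then Neurod1. They store peptides and serotonin in dense-core granules with the granins Chga and Chgb, and release them when nutrients, bile acids or bacterial products reach their receptors. In the colon the main types are L cells, which make proglucagon, peptide YY and insulin-like peptide 5, and enterochromaffin cells, which make serotonin with Tph1.

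The promoter sequences of 4 of the genes show members that moved together in the values below (Gcg and Chga) beside members that did not (Pyy and Tph1). Each is the 250 bases before the gene's start, 5′ to 3′ on the gene's own strand, from the RefSeq annotation of GRCm38.p6. Gcg is on the minus strand at chr2:62483654-62483903, Chga on the plus strand at chr12:102554691-102554940, Pyy on the minus strand at chr11:102107833-102108082, and Tph1 on the minus strand at chr7:46672538-46672787. Capitals mark 3 motifs that were searched: the core of the cAMP response element (TGACG, which reads CGTCA on the other strand), the E-box CAGATG, which reads CATCTG on the other strand, a form bound by basic helix-loop-helix factors of the Neurod1 kind, and TATAAA on the gene's strand only. None of these motifs overlaps another in the 4 sequences.
Gcg: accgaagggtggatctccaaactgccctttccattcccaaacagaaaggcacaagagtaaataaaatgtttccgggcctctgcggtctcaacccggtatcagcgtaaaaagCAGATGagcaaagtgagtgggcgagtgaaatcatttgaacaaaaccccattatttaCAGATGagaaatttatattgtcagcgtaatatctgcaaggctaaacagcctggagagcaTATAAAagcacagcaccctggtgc
Chga: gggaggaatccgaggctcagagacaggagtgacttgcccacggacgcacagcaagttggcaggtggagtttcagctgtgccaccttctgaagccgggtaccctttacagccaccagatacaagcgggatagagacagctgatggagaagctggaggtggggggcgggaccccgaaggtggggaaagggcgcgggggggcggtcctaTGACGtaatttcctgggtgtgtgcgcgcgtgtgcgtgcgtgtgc
Pyy: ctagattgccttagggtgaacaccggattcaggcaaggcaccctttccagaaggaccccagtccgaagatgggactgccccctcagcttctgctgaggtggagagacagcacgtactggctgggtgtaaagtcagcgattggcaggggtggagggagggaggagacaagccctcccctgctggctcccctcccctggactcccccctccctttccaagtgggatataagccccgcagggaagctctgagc
Tph1: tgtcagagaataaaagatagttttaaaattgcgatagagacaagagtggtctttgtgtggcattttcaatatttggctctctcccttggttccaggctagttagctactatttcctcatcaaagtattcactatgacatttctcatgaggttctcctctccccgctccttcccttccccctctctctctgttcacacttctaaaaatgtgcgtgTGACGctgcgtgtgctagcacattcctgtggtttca
Gcg carried CAGATG at 139 and 83 bases and TATAAA at 24 bases before its start, Chga carried TGACG at 44 bases, Tph1 carried TGACG at 36 bases, and Pyy carried none of these letters in this window. Over all 9 genes, 4 held the cAMP response core, against 17.8% of 32851 RefSeq promoters of the same length, 4 held the E-box, against 14.4%, and 3 held TATAAA, against 7.59%. A match of letters is a description and not a binding site.

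The 9 genes spanned a wide range of levels. FPKM, the deposited value per length of transcript and per 1000000 fragments, allows levels of different genes to be compared. In berberine colon Pyy averaged 295 ± 16.3 FPKM, Insl5 109 ± 31.8, Chgb 62.1 ± 12.1, Chga 29.9 ± 2.31, Gcg 21.3 ± 4.13, Sct 5.00 ± 1.24, Tph1 4.57 ± 1.21, Neurod1 1.47 ± 0.204 and Cck 0.336 ± 0.0955 (SD, n = 3 each). Of the neighbours in this order only Sct and Tph1 overlapped between libraries. In high-fat diet colon Pyy led as well, at 212 ± 113 FPKM, followed by Chgb at 12.7 ± 4.98, Insl5 at 9.76 ± 5.61, Chga at 5.85 ± 1.27, Sct at 3.52 ± 1.05, Tph1 at 3.01 ± 2.90, Gcg at 1.78 ± 0.444, Cck at 0.396 ± 0.195 and Neurod1 at 0.321 ± 0.161 (SD, n = 3 each). Pyy stood clear of Chgb there and Gcg stood clear of Cck, while the other neighbours overlapped. In chow colon Pyy averaged 266 ± 128 FPKM, Insl5 99.5 ± 43.3, Chgb 49.9 ± 16.5, Gcg 28.2 ± 5.62, Chga 28.01 ± 9.34, Sct 7.77 ± 4.55, Tph1 3.63 ± 1.64, Neurod1 1.07 ± 0.486 and Cck 0.876 ± 0.608 (SD, n = 3 each). Its order differed from that of berberine colon only in Chga and Gcg, and its neighbours overlapped except that Chga lay above Sct and Tph1 above Neurod1 in every library.

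Library totals ran from 51961764 to 69007117 estimated counts. Libraries are compared below in CPM, counts per 1000000 on library sizes scaled by TMM, which sets the bulk of genes to the same level. A gene is said to have risen or fallen where its Benjamini-Hochberg adjusted p in edgeR's quasi-likelihood test was under 0.05, over the 14506 genes that averaged 1 FPKM or more. Cck, with a mean of 0.536 FPKM over the 9 libraries, and Neurod1, with 0.953, were under that filter and take their values from the same fit to all 34440 genes with a count. The 7 others each averaged above 1 FPKM in all 3 groups, so none passed through a single group. A pair of libraries stood apart. Chow replicate 2 had low levels of Hoxb13 and Hoxd13, genes of the distal colon, with 93.4 CPM of Hoxb13 against at least 249.6 CPM in the other libraries and 4.59 CPM of Hoxd13 against 172 and 268 CPM in the other chow libraries; berberine replicate 3 was also low in Hoxd13, with 28.2 CPM. High-fat diet replicate 3 had more enteric neuron and smooth muscle RNA than its group: 16 neuron and glia markers summed to 199 CPM against 64.2 and 61.96 CPM, and 10 smooth muscle markers to 7753 CPM against 1650 and 2512 CPM. Of 11 posterior Hox genes 1 rose and 1 fell in high-fat diet against chow, where 15.2% of all tested genes rose and 16.6% fell. Hoxa13 fell, with 25.5 to 27.1 CPM in high-fat diet, 43.9 to 75.8 CPM in chow and 45.9 to 53.1 CPM in berberine libraries. Hoxa9 rose, with 97.1 to 132 CPM, against 43.0 to 59.3 and 43.5 to 52.5 CPM. The part of position along the colon in the members' levels was not tested.

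In high-fat diet colon the L cell hormones Gcg and Insl5 and both granins fell by a large factor, while Pyy, Sct and Tph1 did not pass the test. Of the 7 members over the filter, 4 fell and none rose in high-fat diet against chow, where 16.6% of all tested genes fell and 15.2% rose. In the fit with no filter 5 of 9 fell, Neurod1 being the fifth, against 6.8% of all genes. The median log2 fold change was -2.10 over the 7 members and 0.0015 over all tested genes. In bulk tissue, fewer enteroendocrine cells and less RNA per cell cannot be told apart.

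Gcg encodes proglucagon, which L cells cut into the incretin GLP-1 and the gut growth factor GLP-2. It had 2.96, 3.41 and 2.13 CPM in high-fat diet libraries, against 51.1, 58.8 and 36.8 CPM in chow libraries. The groups were far apart, and the high-fat diet libraries were close to each other. Gcg averaged 2.84 ± 0.649 CPM in high-fat diet colon and 48.9 ± 11.1 CPM in chow colon (SD, n = 3 each), a log2 fold change of -4.11 ± 0.28 (SE; edgeR adjusted p = 8.27e-05), or 17.2-fold lower. The estimated counts behind it were 134 to 216 in high-fat diet libraries and 2525 to 3163 in chow libraries.

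Insl5 encodes a relaxin-family peptide of colonic L cells. It had 12.1, 6.32 and 3.95 CPM in high-fat diet libraries, against 111.5, 46.2 and 88.9 CPM in chow libraries. The groups did not overlap, and the lowest chow library was replicate 2. The log2 fold change was -3.46 ± 0.49 (SE; edgeR adjusted p = 0.00151), 11.01-fold lower in high-fat diet colon. Without chow replicate 2 it was -3.74 (edgeR adjusted p = 0.00176).

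Pyy, whose peptide slows gut transit and curbs appetite, is made by the same colonic L cells as Gcg and Insl5. It had 106, 88.2 and 236 CPM in high-fat diet libraries, against 201, 99.1 and 274 CPM in chow libraries. The groups overlapped. The log2 fold change of -0.41 ± 0.43 (SE; edgeR adjusted p = 0.497) did not pass the test. High-fat diet replicate 3, the library with the most neuron and smooth muscle RNA of its group, was the high one, and chow replicate 2 the low one. Without the first the log2 fold change was -0.97 (edgeR adjusted p = 0.0928), and without the second -0.73 (edgeR adjusted p = 0.197). The part of this other RNA in the Pyy level was not tested.

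The granins Chga and Chgb are general proteins of dense-core granules, shared by L cells and enterochromaffin cells. Chga had 18.1, 19.7 and 13.4 CPM in high-fat diet libraries, against 87.2, 62.3 and 116 CPM in chow libraries, a log2 fold change of -2.37 ± 0.24 (SE; edgeR adjusted p = 0.000375). Chgb had 40.3, 48.1 and 21.5 CPM in high-fat diet libraries, against 188, 104 and 179 CPM in chow libraries, a log2 fold change of -2.10 ± 0.33 (SE; edgeR adjusted p = 0.00244). Neither granin overlapped between the groups; Chga was 5.18-fold and Chgb 4.28-fold lower in high-fat diet colon.

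Neurod1, a basic helix-loop-helix factor that acts after Neurog3 in the lineage, was low throughout. It had 0.576, 1.44 and 0.780 CPM in high-fat diet libraries, against 4.12, 1.70 and 4.17 CPM in chow libraries, from 42 to 85 estimated counts in high-fat diet libraries and 91 to 286 in chow libraries. The groups did not overlap, but chow replicate 2 lay close to high-fat diet replicate 2. Its log2 fold change was -1.80 ± 0.46 (SE; edgeR adjusted p = 0.0283 over all genes with a count), and -2.11 without chow replicate 2 (edgeR adjusted p = 0.0128). The call was lost in 9 of 18 alternatives, among them the fits without high-fat diet replicate 1 (adjusted p = 0.0896), without high-fat diet replicate 3 (adjusted p = 0.0754), without chow replicate 1 (adjusted p = 0.0832) and without chow replicate 3 (adjusted p = 0.0762), all edgeR.

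Secretin (Sct) stimulates bicarbonate secretion and cholecystokinin (Cck) gallbladder emptying, and both are textbook products of the duodenum. Sct had 3.12, 2.38 and 1.78 CPM in high-fat diet libraries, against 4.38, 10.2 and 3.21 CPM in chow libraries. The groups did not overlap, and chow replicate 2 was the high library. The log2 fold change was -1.29 ± 0.46 (SE; edgeR adjusted p = 0.0631) and -0.64 without chow replicate 2 (edgeR adjusted p = 0.244). Cck had 0.247, 0.645 and 0.796 CPM in high-fat diet libraries, against 1.05, 2.498 and 0.554 CPM in chow libraries, with chow replicate 2 again the high one. Its groups overlapped, and its log2 fold change of -1.24 ± 0.67 (SE; edgeR adjusted p = 0.295) became -0.48 without chow replicate 2 (edgeR adjusted p = 0.754). Cck rested on 18 to 134 estimated counts per library, so differences of this size were not detectable at this depth and spread.

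**Figure D1:**
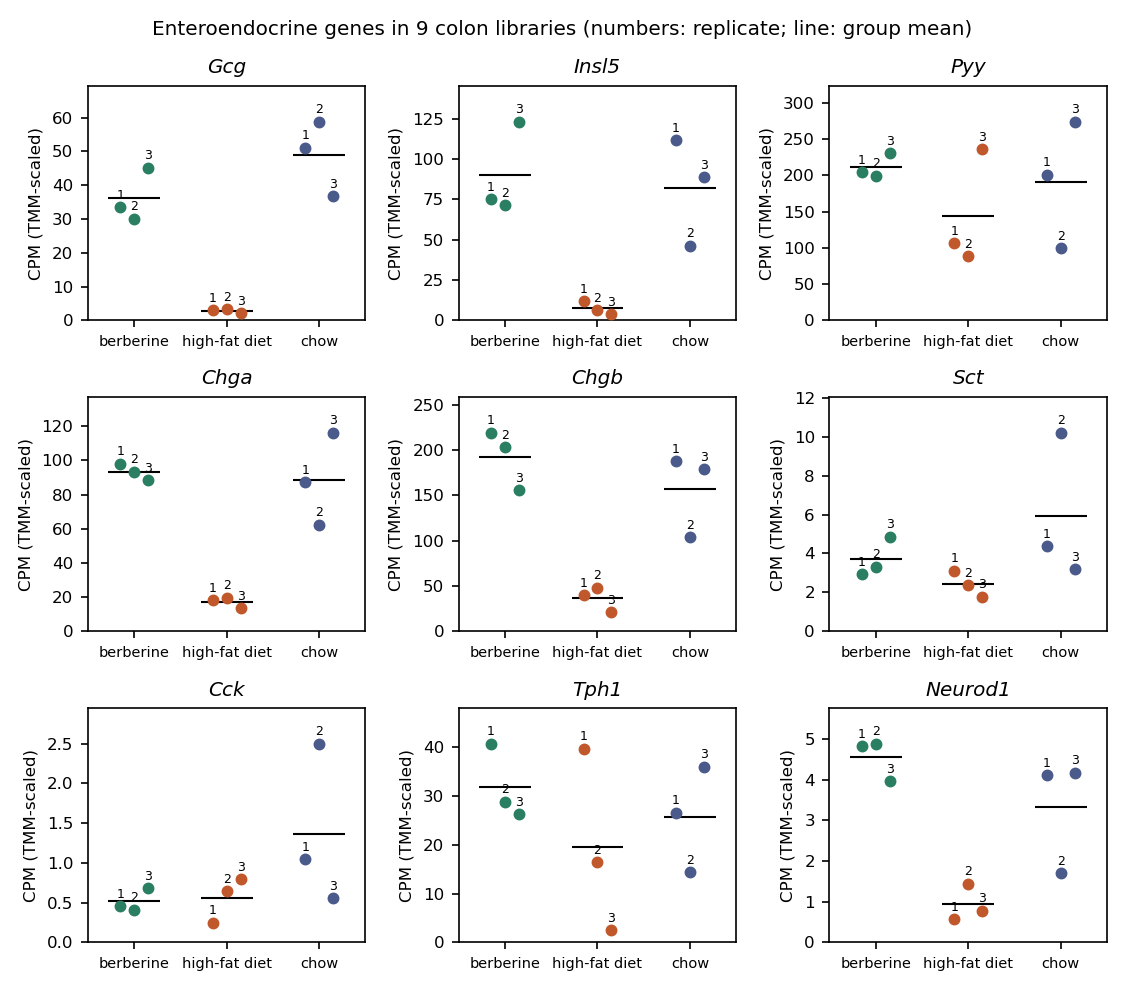
CPM of the 9 genes in each library (vertical axis, TMM-scaled, from 0), by group (horizontal axis); points are libraries numbered by replicate and lines are group means (n = 3). Gcg, Insl5, Chga and Chgb are lower in each high-fat diet library than in any other library, while Pyy and Tph1 overlap between the groups.

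In berberine colon the same 4 genes were higher than in high-fat diet colon, and no member passed the test against chow. Of the 7 members over the filter, 4 rose and none fell in berberine against high-fat diet, where 15.8% of all tested genes rose and 14.9% fell. With no filter 5 of 9 rose, against 6.51% of all genes. The median log2 fold change was 2.40 over the 7 members and -0.0069 over all tested genes. This comparison uses the same high-fat diet libraries as the one above, so the match of the 2 directions is not independent.

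Gcg had 33.6, 30.1 and 45.2 CPM in berberine libraries, against 2.96, 3.41 and 2.13 CPM in high-fat diet libraries. The log2 fold change was 3.68 ± 0.27 (SE; edgeR adjusted p = 9.91e-05), 12.8-fold higher in berberine colon. Insl5 had 74.9, 71.5 and 123 CPM in berberine libraries, against 12.1, 6.32 and 3.95 CPM in high-fat diet libraries, with a log2 fold change of 3.59 ± 0.50 (SE; edgeR adjusted p = 0.00134). For both hormones every berberine library lay above every high-fat diet library.

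Chga had 98.1, 93.4 and 88.5 CPM in berberine libraries, against 18.1, 19.7 and 13.4 CPM in high-fat diet libraries, a log2 fold change of 2.45 ± 0.24 (SE; edgeR adjusted p = 0.000323). Chgb had 219, 203 and 156 CPM in berberine libraries, against 40.3, 48.1 and 21.5 CPM in high-fat diet libraries, a log2 fold change of 2.40 ± 0.34 (SE; edgeR adjusted p = 0.00143). Neurod1 had 4.83, 4.89 and 3.96 CPM in berberine libraries, against 0.576, 1.44 and 0.780 CPM in high-fat diet libraries, a log2 fold change of 2.29 ± 0.47 (SE; edgeR adjusted p = 0.0104, no filter). These 3 genes did not overlap between the groups, and this call of Neurod1 held in 18 of 18 alternatives.

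Pyy had 204, 200 and 231 CPM in berberine libraries, against 106, 88.2 and 236 CPM in high-fat diet libraries. High-fat diet replicate 3 lay above all berberine libraries, and the log2 fold change of 0.56 ± 0.43 (SE; edgeR adjusted p = 0.351) did not pass the test; without that library it was 1.11 (edgeR adjusted p = 0.0651). Sct had 2.95, 3.33 and 4.87 CPM in berberine libraries, against 3.12, 2.38 and 1.78 CPM in high-fat diet libraries, a log2 fold change of 0.61 ± 0.46 (SE; edgeR adjusted p = 0.338). Cck had 0.460, 0.412 and 0.684 CPM in berberine libraries, against 0.247, 0.645 and 0.796 CPM in high-fat diet libraries, and its log2 fold change of -0.11 ± 0.67 (SE) was smaller than its error.

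Against chow, 0 of 7 members passed the test in berberine colon (0 of 9 with no filter), where 0.0483% of all tested genes, 7 of 14506, passed in either direction; DESeq2 passed 179 higher and 205 lower genes of 13849 and none of the members. At an unadjusted p under 0.05 edgeR passed 0 of the 7 members, where 10.9% of all tested genes passed. The log2 fold changes of the members that moved in the other comparisons were -0.43 ± 0.24 for Gcg, 0.13 ± 0.45 for Insl5, 0.08 ± 0.23 for Chga, 0.30 ± 0.32 for Chgb and 0.49 ± 0.44 for Neurod1 (SE). Pyy stood at 0.15 ± 0.43, Sct at -0.67 ± 0.46 and Cck at -1.35 ± 0.67 (SE), and without chow replicate 2 Sct was at -0.03 and Cck at -0.62. A p over the threshold does not show that the groups were alike, and these errors leave room for differences in each member.

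**Figure D2:**
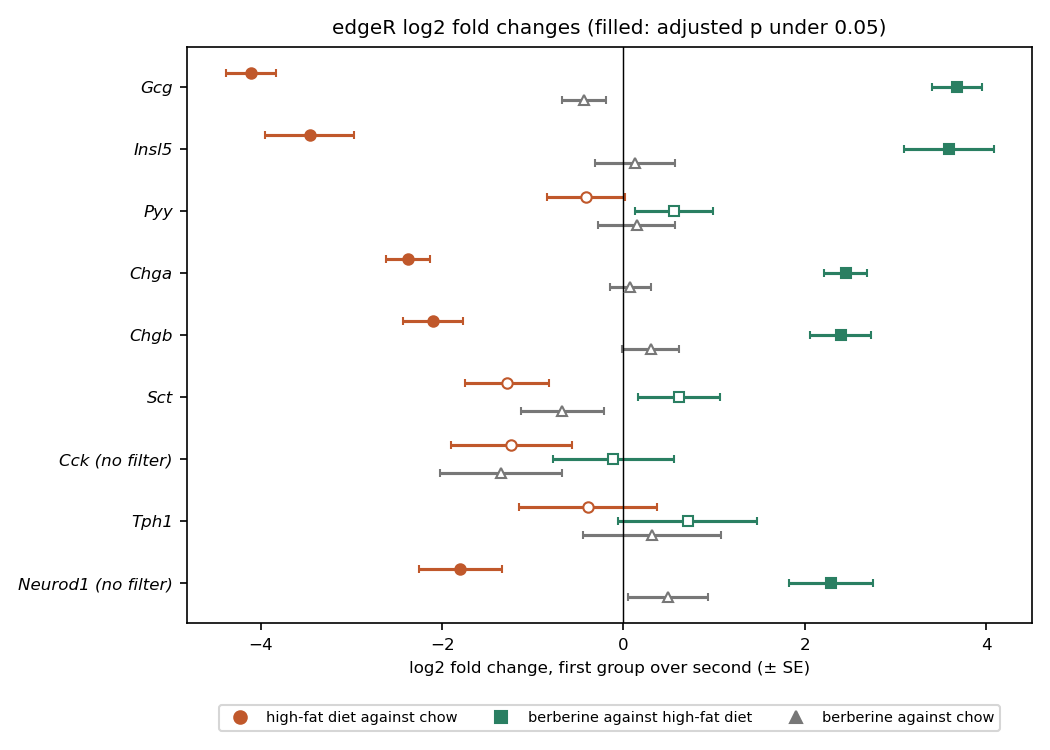
Log2 fold changes (horizontal axis, first group over second, ± SE) of the 9 genes (vertical axis) in the 3 comparisons; filled symbols passed the test. Gcg (-4.11 and 3.68) and Insl5 (-3.46 and 3.59) lie farthest from 0 in both comparisons with high-fat diet colon, and no symbol against chow is filled.

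Ratios to Chga within each library set the other members beside a general granule gene. Chga itself was 5.18-fold lower in high-fat diet than in chow colon, and 5.47-fold lower than in berberine colon. A gene that did not change would therefore have a higher ratio in high-fat diet colon. The share of all genes whose ratio to Chga would not overlap between groups was not computed. A ratio of CPM does not depend on library scaling; it is not corrected for gene length, so only its differences between groups are read. The ratio of Gcg to Chga was 0.164, 0.173 and 0.159 in high-fat diet libraries, against 0.586, 0.943 and 0.317 in chow libraries. The Gcg ratio was lower in each high-fat diet library than in any chow library, and the log2 ratio differed by -1.76 ± 0.46 (SE). The ratio of Insl5 to Chga was 0.670, 0.320 and 0.295 in high-fat diet libraries, against 1.28, 0.742 and 0.766 in chow libraries, a log2 difference of -1.18 ± 0.45 (SE). The ratio of Pyy to Chga was higher instead, with 5.88, 4.47 and 17.6 in high-fat diet libraries, against 2.30, 1.59 and 2.36 in chow libraries, a log2 difference of 1.91 ± 0.63 (SE). Pyy itself did not pass the test in this comparison, so the higher ratio does not show a rise of Pyy. High-fat diet replicate 3 was the high library, and without it the log2 difference was 1.32. These 3 of 8 ratios did not overlap between the groups. Each had a two-sided exact permutation p of 0.1, the smallest that 3 against 3 libraries can give, and the lowest value adjusted over the 24 ratios was 0.3, so none passed.

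Between berberine and high-fat diet colon 5 of 8 ratios to Chga did not overlap, again with no share over all genes computed. The ratio of Gcg to Chga was 0.342, 0.322 and 0.511 in berberine libraries, against 0.164, 0.173 and 0.159 in high-fat diet libraries. That of Pyy was 2.08, 2.14 and 2.60 in berberine libraries, against 5.88, 4.47 and 17.6 in high-fat diet libraries, a log2 difference of -1.77, or -1.18 without high-fat diet replicate 3. Insl5 was higher relative to Chga in berberine colon and Sct and Cck were lower, each with an exact permutation p of 0.1, which is again the smallest possible. Pyy, Sct and Cck themselves did not pass the test in this comparison, so their lower ratios do not show a fall of these genes. The ratio of Chgb to Chga ran from 1.76 to 2.23 in berberine libraries, 1.60 to 2.43 in high-fat diet libraries and 1.54 to 2.15 in chow libraries, and the groups overlapped. That of Neurod1 ran from 0.0447 to 0.0523 in berberine libraries, 0.0318 to 0.0731 in high-fat diet libraries and 0.0272 to 0.0472 in chow libraries, again with overlap.

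**Figure D3:**
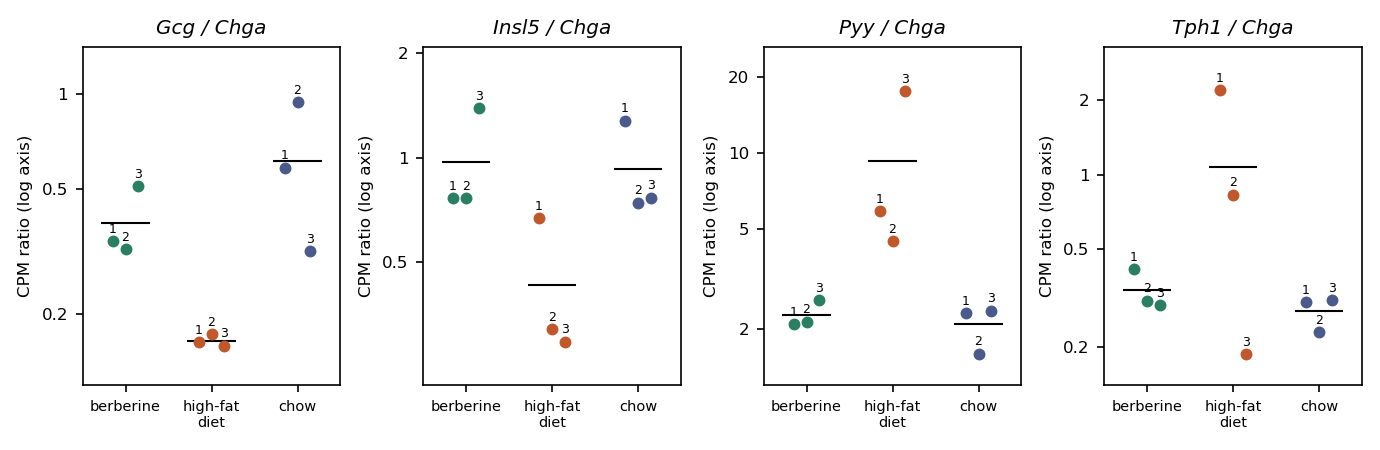
Ratio of the CPM of Gcg, Insl5, Pyy and Tph1 to the CPM of Chga in each library (vertical axis, log scale), by group (horizontal axis); points are libraries numbered by replicate and lines are group means (n = 3). Gcg lies lowest relative to Chga in the high-fat diet libraries (0.159 to 0.173), Pyy lies highest there (4.47 to 17.6), and Tph1 is spread from 0.188 to 2.20 in that group.

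Pearson's r of log2(CPM + 1) across the 9 libraries was 0.98 between Chga and Chgb, 0.97 between Chga and Insl5, 0.94 between Gcg and Chga and 0.93 between Chga and Neurod1. Pyy had its highest r with Neurod1, at 0.59, and had 0.34 with Gcg and -0.01 with Tph1. Tph1 had 0.70 with Chgb, 0.65 with Insl5 and 0.61 with Chga, and Sct had 0.70 with Gcg. Sct and Cck, both high in chow replicate 2, had an r of 0.76 with each other. These values describe 9 libraries that share 3 groups and carry no test.

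Tph1 did not pass the test in any of the 3 comparisons. It catalyses the rate-limiting step of serotonin synthesis in enterochromaffin cells, and in mice also in mast cells. Tph1 had 40.7, 28.8 and 26.2 CPM in berberine libraries, 39.7, 16.4 and 2.51 CPM in high-fat diet libraries, and 26.6, 14.3 and 36.0 CPM in chow libraries. The high-fat diet group held both the second highest and the lowest of the 9 libraries, and its log2 fold change against chow was -0.39 ± 0.76 (SE; edgeR adjusted p = 0.731), 0.14 without high-fat diet replicate 3 and -1.45 without high-fat diet replicate 1 (edgeR adjusted p = 0.1845). In berberine colon it had a log2 fold change of 0.71 ± 0.76 (SE; edgeR adjusted p = 0.512) over high-fat diet colon, 1.77 without high-fat diet replicate 1 (edgeR adjusted p = 0.121), and of 0.32 ± 0.76 (SE) over chow colon.

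The summed mast cell markers, though not each marker, ran in the same order as Tph1 within the high-fat diet group. The 12 mast cell markers summed to 4975, 1136 and 344 CPM in high-fat diet replicates 1, 2 and 3, where Tph1 had 39.7, 16.4 and 2.51 CPM. The goblet cell markers, at 6735, 4278 and 1036 CPM, and the tuft cell markers, at 176, 117 and 67.0 CPM, ran in that order too. Avil alone had 150, 100.4 and 53.2 CPM of the tuft sums, while the tuft marker Dclk1 had 5.18, 4.84 and 7.65 CPM. The tuft order was thus largely that of Avil and does not stand for each tuft marker. In chow replicates 1, 2 and 3 the mast cell sum was 81.0, 134 and 70.9 CPM and Tph1 26.6, 14.3 and 36.0 CPM, the opposite order. Kit alone had 70.1, 131 and 57.6 CPM of that chow sum, and 56.35 to 70.9 CPM of the sum in berberine libraries. The order in chow was thus that of Kit and does not stand for the other markers. Over the groups the sum ran from 77.4 to 93.6 CPM in berberine libraries, 344 to 4975 CPM in high-fat diet libraries and 70.9 to 134 CPM in chow libraries, and none of the 12 was at 0 in every library. Of 10 tested mast cell markers 9 rose and 1, Kit, fell in high-fat diet against chow, where 15.2% of all tested genes rose. Cpa3, Mcpt4, Tpsab1, Tpsb2, Fcer1a and Gata2 averaged under 1 FPKM in both other groups. They passed the filter only through high-fat diet colon, so their part of this count is no independent result. With no filter 10 of 12 rose and 1 fell, where 2171 of 34440 genes rose. The protease Mcpt1 had 2406, 577 and 118 CPM in high-fat diet libraries, against 1.16, 1.08 and 1.299 CPM in chow libraries. The part of mast cells in the Tph1 level was not tested.

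Of the 13 genes that handle serotonin, 9 were tested, and in high-fat diet against chow 2 rose and 4 fell. Beside this and the other lists, 15.2% of all tested genes rose and 16.6% fell in that comparison. In berberine against high-fat diet 15.8% of all tested genes rose and 14.9% fell. Counts near these shares are not read as a result about a list. Slc18a1, the vesicular transporter that loads serotonin into endocrine granules, had 4.16, 6.18 and 4.76 CPM in berberine libraries, 75.1, 42.0 and 42.3 CPM in high-fat diet libraries, and 4.05, 3.67 and 5.28 CPM in chow libraries. Its log2 fold change was 3.61 ± 0.30 in high-fat diet against chow (SE; edgeR adjusted p = 0.000203). It thus rose where the granins fell, and it fell in berberine against high-fat diet, with a log2 fold change of -3.40 ± 0.30 (SE; edgeR adjusted p = 0.000223). Slc18a1 averaged 0.818 FPKM in berberine, 9.29 in high-fat diet and 0.695 in chow colon, so it passed the filter only through the high-fat diet group. With no filter its 2 calls were the same. Among the genes that fell in high-fat diet colon, the serotonin transporter Slc6a4, which clears serotonin into epithelial cells, changed by -2.30 ± 0.46 on the log2 scale (SE), the serotonin-degrading oxidases Maob by -2.66 ± 0.21 and Maoa by -2.50 ± 0.31, and the receptor Htr4 by -3.48 ± 0.51. All 4 rose in berberine against high-fat diet colon. Ddc, the enzyme after Tph1 in the pathway, had 84.4, 85.2 and 67.5 CPM in berberine libraries, 43.6, 28.9 and 49.2 CPM in high-fat diet libraries and 90.97, 52.2 and 61.5 CPM in chow libraries, lowest in the high-fat diet group. It rose in berberine against high-fat diet (0.96 ± 0.25, SE; edgeR adjusted p = 0.0217), a call lost without berberine replicate 1 or 2 or high-fat diet replicate 2 (edgeR adjusted p up to 0.0672), and just missed the test in high-fat diet against chow (-0.75 ± 0.25, SE; edgeR adjusted p = 0.0519), where it passed without high-fat diet replicate 3 (0.0485) or chow replicate 2 (0.0334). The median over the 9 tested genes was -1.71 in high-fat diet against chow and 1.23 in berberine against high-fat diet.

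**Figure D4:**
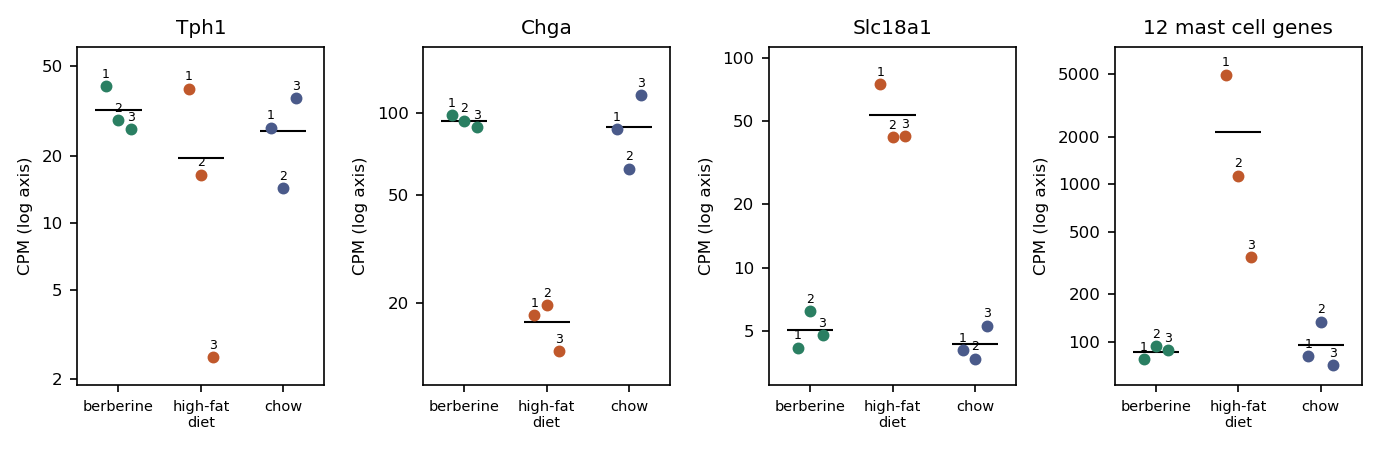
CPM of Tph1, Chga, Slc18a1 and of 12 mast cell genes summed, in each library (vertical axes, log scale), by group (horizontal axis); points are libraries numbered by replicate and lines are group means (n = 3). In the high-fat diet libraries Tph1 and the mast cell sum are both highest in replicate 1 and lowest in replicate 3, Chga is low at 13.4 to 19.7 CPM, and Slc18a1 is high at 42.0 to 75.1 CPM.

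Most other transcription factors of the enteroendocrine lineage were under the filter, and those that passed the test went in both directions. Of 24 factors 9 were over the filter, of which 2 rose and 3 fell in high-fat diet against chow, with a median log2 fold change of -0.62. Of all tested genes 15.2% rose and 16.6% fell. With no filter 2 factors rose, 10 fell and 12 did not pass, with a median of -1.67, where 6.8% of all genes fell and 2171 of 34440 rose. The 2 that rose are not read as a result about the list. Atoh1, which commits crypt cells to the secretory lineages, goblet cells included, had 11.9, 11.8 and 6.94 CPM in high-fat diet libraries, against 53.2, 75.5 and 43.2 CPM in chow libraries, a log2 fold change of -2.49 ± 0.28 (SE; edgeR adjusted p = 0.00055). Insm1, a zinc finger factor of endocrine differentiation, had 1.44, 1.002 and 0.844 CPM in high-fat diet libraries, against 6.56, 4.32 and 6.45 CPM in chow libraries, a log2 fold change of -2.40 ± 0.32 (SE; edgeR adjusted p = 0.00108). Mlxipl, a glucose-sensing factor, changed by -1.29 ± 0.22 (SE; edgeR adjusted p = 0.00315).

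Sox4, a factor of secretory progenitors that growing epithelium at large can also express, rose instead. It had 197, 271 and 269 CPM in high-fat diet libraries, against 29.6, 34.3 and 18.9 CPM in chow libraries, a log2 fold change of 3.16 ± 0.25 (SE; edgeR adjusted p = 0.000143). Foxa1, a pioneer factor of gut epithelium at large, rose by 0.69 ± 0.16 on the log2 scale (SE; edgeR adjusted p = 0.012).

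Fev, Neurog3 and Isl1 were picked for naming after their values had been seen. Fev, of enterochromaffin cells, had 0.192, 0.272 and 0.366 CPM in high-fat diet libraries, against 1.89, 1.68 and 2.95 CPM in chow libraries, a log2 fold change of -2.93 ± 0.47 (SE; edgeR adjusted p = 0.00316, no filter). Neurog3, the initiating factor, did not pass: it had 0.0274, 0.0679 and 0.287 CPM in high-fat diet libraries, against 2.23, 0.112 and 0.511 CPM in chow libraries (log2 fold change -2.86; edgeR adjusted p = 0.135, no filter), and its groups overlapped; without high-fat diet replicate 3 it was at -4.24 and without chow replicate 1 at -1.26, neither past the test. Isl1, an islet and L cell factor that neurons share, had 10.3, 20.9 and 30.7 CPM in high-fat diet libraries, against 8.03, 0.820 and 7.18 CPM in chow libraries, the opposite direction, without passing the test (edgeR adjusted p = 0.0845).

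In berberine against high-fat diet 4 of 9 tested factors rose and 2 fell, where 15.8% of all tested genes rose and 14.9% fell. With no filter 10 of 24 rose and 1 fell, where 6.51% of all genes rose and 1968 of 34440 fell. Atoh1 had 57.5, 57.4 and 74.8 CPM in berberine libraries, a log2 fold change of 2.63 ± 0.28 over high-fat diet colon (SE; edgeR adjusted p = 0.000455). Insm1 had 6.36, 7.52 and 5.03 CPM, a log2 fold change of 2.52 ± 0.32 (SE; edgeR adjusted p = 0.000915), and Sox4 had 30.1, 30.6 and 24.2 CPM, a log2 fold change of -3.12 ± 0.25 (SE; edgeR adjusted p = 0.00013). Isl1 had 5.42, 3.37 and 2.07 CPM and fell by 2.51 ± 0.78 on the log2 scale (SE; edgeR adjusted p = 0.0401). That call was lost with no filter (edgeR adjusted p = 0.0517) and without any library of the 2 groups other than high-fat diet replicate 1 (edgeR adjusted p up to 0.12). None of the 24 passed against chow.

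Genes of the dense-core granule, prohormone processing and exocytosis fell more often than they rose in high-fat diet against chow, with 10 of 16 tested genes lower and 3 higher, of 25 in the list, and a median log2 fold change of -1.76. Of all tested genes 16.6% were lower and 15.2% higher. Ptprn2, a membrane protein of the granule, had 4.63, 4.33 and 3.96 CPM in high-fat diet libraries, against 21.6, 56.2 and 12.9 CPM in chow libraries, a log2 fold change of -2.81 ± 0.48 (SE; edgeR adjusted p = 0.00344), or -1.997 without chow replicate 2, the high library (edgeR adjusted p = 0.00169). Cpe, the carboxypeptidase that trims prohormones, changed by -1.25 ± 0.23 (SE; edgeR adjusted p = 0.00448), and Resp18, a granule protein, by -1.99 ± 0.39 (SE; edgeR adjusted p = 0.00597). Neurons use many of these genes too: Scg2, a secretogranin, had 6.23, 5.11 and 24.8 CPM in high-fat diet replicates 1, 2 and 3, and neuron and glia markers summed to 64.2, 61.96 and 199 CPM in the same libraries. The sum was 193 to 250 CPM in berberine libraries and 243 to 359 CPM in chow libraries, and none of the 16 markers was at 0 in every library. In high-fat diet against chow 4 of 12 tested markers fell, against 16.6% of all tested genes. The part of neurons and glia in the fall of the shared granule genes was not tested.

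The 3 granule genes that rose in high-fat diet against chow were Slc18a1, the syntaxin Stx1a and the complexin Cplx2. Of these Slc18a1 passed the filter only through high-fat diet colon. With no filter 4 of the 25 rose and 12 fell, where 2171 of 34440 genes rose and 6.8% fell. Stx1a had 76.1, 37.9 and 45.1 CPM in high-fat diet libraries, against 6.15, 5.59 and 8.40 CPM in chow libraries, a log2 fold change of 2.98 ± 0.35 (SE; edgeR adjusted p = 0.000619). In berberine against high-fat diet 4 of the 16 rose (Scg5, Resp18, Pcsk1n and Ptprn2) and the same 3 fell, where 15.8% of all tested genes rose and 14.9% fell. Resp18 lost that call without berberine replicate 3 (edgeR adjusted p = 0.0536), and Scg5 and Pcsk1n lost it without berberine replicate 2 or 3 or high-fat diet replicate 1 or 2 (edgeR adjusted p up to 0.082 and 0.08). The prohormone convertase Pcsk1, which cuts proglucagon to GLP-1 in L cells, had 8.37, 6.11 and 7.80 CPM in berberine libraries, 3.18, 2.14 and 6.16 CPM in high-fat diet libraries and 11.4, 33.2 and 11.9 CPM in chow libraries. It fell in high-fat diet against chow (log2 fold change -2.30 ± 0.52, SE; edgeR adjusted p = 0.0114), by 1.62 without chow replicate 2 (edgeR adjusted p = 0.0256), while berberine against high-fat diet did not pass (0.96 ± 0.51, SE; edgeR adjusted p = 0.184).

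**Figure D5:**
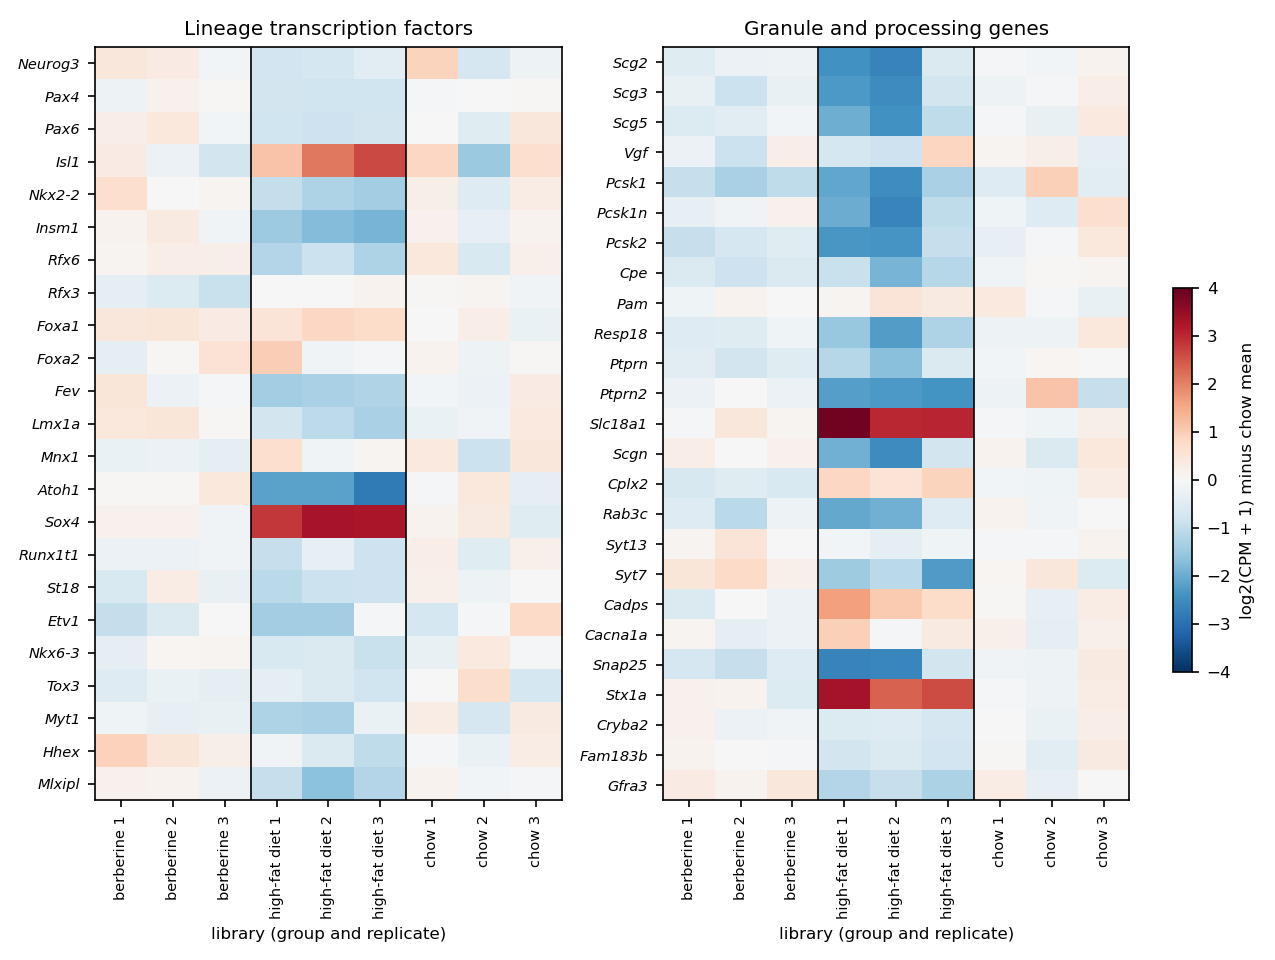
Log2(CPM + 1) of lineage factors (left) and 25 granule and processing genes (right) in each of the 9 libraries (columns), less the chow mean, in color from -4 to 4. Many rows are blue in the high-fat diet columns, with Sox4, Slc18a1 and Stx1a red, and Scg2, Scg3 and Snap25 are paler in high-fat diet replicate 3.

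Other gut peptides were less uniform. Of 15 in the list 10 were tested, and 2 fell and none rose in high-fat diet against chow, with a median log2 fold change of -0.55. The 2 of 10 that fell lie near the share of all tested genes that fell, 16.6%. Guca2a, guanylin, an epithelial peptide that is not particular to endocrine cells, had 81.4, 66.0 and 45.2 CPM in high-fat diet libraries, against 483, 1121 and 508 CPM in chow libraries, a log2 fold change of -3.45 ± 0.46 (SE; edgeR adjusted p = 0.00108). Sst, somatostatin of D cells and neurons, had 4.77, 1.19 and 3.26 CPM in high-fat diet libraries, against 8.11, 40.5 and 10.8 CPM in chow libraries, a log2 fold change of -2.69 ± 0.75 (SE; edgeR adjusted p = 0.0252), with chow replicate 2 the high library; the call was lost without that library (-1.62; edgeR adjusted p = 0.0803) and without high-fat diet replicate 2 (0.0688) or 3 (0.065). Ppy, pancreatic polypeptide, had 22.4, 42.7 and 46.6 CPM in berberine libraries, against 22.4, 12.6 and 8.13 CPM in high-fat diet libraries, and rose by 1.37 ± 0.44 on the log2 scale (SE; edgeR adjusted p = 0.0439), with overlap. Ppy did not pass with no filter (edgeR adjusted p = 0.0625), nor without berberine replicate 2 or 3 or high-fat diet replicate 2 or 3 (edgeR adjusted p up to 0.132). Nmb did not pass the test and lay the other way, with 4.33, 2.80 and 4.03 CPM in high-fat diet libraries, against 1.39, 1.68 and 2.79 CPM in chow libraries. Adm did not pass either, with 8.36, 6.18 and 3.02 CPM in high-fat diet libraries, against 8.14, 8.65 and 11.4 CPM in chow libraries. Gip, Gast and Ucn3 were at 0 in every library.

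Receptors by which these cells sense nutrients mostly stayed under the filter: 6 of 18 were tested, of which 4 fell and none rose in high-fat diet against chow. Of all tested genes 16.6% fell and 15.2% rose. Ffar1 and Ffar4, receptors of long-chain fatty acids that trigger GLP-1 release, changed by -1.46 ± 0.40 and -0.99 ± 0.28 on the log2 scale (SE; edgeR adjusted p = 0.0237 and 0.0256). Slc5a1, the sodium-coupled glucose carrier, changed by -1.10 ± 0.29 (SE; edgeR adjusted p = 0.0204), and Olfr78, a receptor of short-chain fatty acids, by -3.07 ± 0.67 (SE; edgeR adjusted p = 0.00985). Leaving out 1 library ended the call of Ffar1 (chow replicate 3 or either of high-fat diet replicates 2 and 3; edgeR adjusted p up to 0.0718), Ffar4 (either of high-fat diet replicates 1 and 3 or of chow replicates 1 and 2; up to 0.0812) and Slc5a1 (chow replicate 1 or 2; up to 0.0568). In berberine against high-fat diet Ffar1 rose by 1.89 ± 0.40, Ffar4 by 1.62 ± 0.28 and Slc5a1 by 1.01 ± 0.29 on the log2 scale (SE), the last not without berberine replicate 2 or 3 or high-fat diet replicate 1 (edgeR adjusted p up to 0.093), while Olfr78 did not pass (1.68 ± 0.64; edgeR adjusted p = 0.0786). Of the receptors and the peptidase on which the members' hormones act, 3 of 13 were tested. Of these Dpp4 and the receptor Npy4r fell in high-fat diet against chow, and the receptor Glp2r did not pass. Npy4r had 4.45, 3.02 and 12.2 CPM in high-fat diet libraries, against 18.1, 18.7 and 17.0 CPM in chow libraries, and did not pass with no filter. In berberine against high-fat diet only Dpp4 of the 3 rose. Dpp4, the peptidase that inactivates GLP-1, had 38.3, 40.2 and 41.7 CPM in berberine libraries, 12.3, 8.18 and 8.69 CPM in high-fat diet libraries and 34.7, 27.96 and 38.2 CPM in chow libraries, and fell in high-fat diet against chow (-1.79 ± 0.19, SE; edgeR adjusted p = 0.000464) and rose in berberine against high-fat diet (2.04 ± 0.19, SE; edgeR adjusted p = 0.000287).

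Markers of neighbouring cell types differed between the groups, not all in 1 direction. The 16 general epithelial genes summed to 15586 to 18698 CPM in berberine libraries, 11468 to 15016 CPM in high-fat diet libraries and 17262 to 18493 CPM in chow libraries; 2 rose (Krt18 and Cldn4), 6 fell and 8 did not pass in high-fat diet against chow. Goblet cells are the other main secretory cells, and their 11 markers summed to 14365 to 26321 CPM in berberine libraries, 1036 to 6735 CPM in high-fat diet libraries and 10281 to 31559 CPM in chow libraries, with 6 of 11 lower in high-fat diet against chow and a median log2 fold change of -1.90. The 8 tuft cell markers, of a chemosensory epithelial cell, summed to 34.5 to 48.4 CPM in berberine libraries, 67.0 to 176 CPM in high-fat diet libraries and 30.0 to 58.3 CPM in chow libraries; of 3 tested 1, Avil, rose and none fell in high-fat diet against chow. Avil had 150, 100.4 and 53.2 CPM in high-fat diet libraries, against 6.33, 10.8 and 5.49 CPM in chow libraries. It made up most of the tuft sum in high-fat diet libraries. With no filter 1 of 8, Avil, rose and 1, Dclk1, fell, with a median log2 fold change of -0.78. Dclk1 had 5.18, 4.84 and 7.65 CPM in high-fat diet libraries, against 16.5, 28.1 and 15.7 CPM in chow libraries. The 10 smooth muscle markers summed to 4877 to 5812 CPM in berberine libraries, 1650 to 7753 CPM in high-fat diet libraries and 9867 to 13734 CPM in chow libraries; 5 of 10 were lower in high-fat diet against chow, with a median log2 fold change of -1.55, and 0 of 10 passed in berberine against high-fat diet. No gene of these 4 lists was at 0 in every library, and their part in the members' levels was not tested. When libraries were scaled by the 16 epithelial genes, the median of all genes in high-fat diet against chow moved to 0.47, and Gcg stood at -3.63, Insl5 at -2.98, Chga at -1.93 and Chgb at -1.66, all 4 still past the test, while Pyy was at 0.02. Of the members, those 4 fell and Pyy did not whichever scaling was used. The genes whose profile over the 9 libraries was most like the mean standardised profile of the 7 tested members, by Pearson's r of log2(CPM + 1), were Gstm2 at 0.991, Cyp2c68 and Pck1 at 0.99, Enpp2 and Rasgef1b at 0.988, Slc26a3 at 0.987, Dpp4, Tm6sf2 and Aldh2 at 0.986, and Chpt1 at 0.985. That profile was low in every high-fat diet library, so genes chosen by it are low there by the choice.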

How the data were processed

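Poly(A) RNA of colonic tissue was sequenced as stranded paired-end libraries with molecular identifiers, per the labels' protocols. The submitters' processing notes name the build GRCm38, the trimmer cutadapt 1.9, UMI-tools, the aligner HISAT2 2.0.4, the assembler StringTie 1.3.4d, and edgeR and DESeq2, with no settings. The deposited table holds estimated counts that the authors made per gene, and FPKM, per the file headers. Among estimated counts of 1 to 12, 41.5% were multiples of 4, so 1 fragment may be worth about 4 counts, and precision is below what the totals imply. All 9 libraries were fitted together with group as the only term in edgeR 4.0.16 (TMM, quasi-likelihood, R 4.3.3), and p-values were adjusted over the 14506 genes that averaged 1 FPKM or more, or over all 34440 with a count. Alternatives used DESeq2 1.42.0, limma 3.58.1 on log2(FPKM + 1), other scalings, counts divided by 4, and each library left out, which for named genes outside the members was added after the data were seen. The members and lists were chosen with earlier results of these data known. Besides the members, up to 5 genes per list with the smallest p in high-fat diet against chow are named. Kit, Cpa3, Fcer1a, Gata2, Ddc, Cplx2, Pcsk1, Krt18, Scg2, Scg3, Scg5, Snap25, Pcsk1n, Hoxb13, Hoxd13, Fev, Neurog3, Isl1 and Dclk1 were added after their values were seen. The values of 1 lineage factor are not reported here. Sequences are from RefSeq (GRCm38.p6), in which all 9 members matched; the deposited coordinates equal GENCODE for 8 of them.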

Additional observations from a re-analysis of the deposited data

How the results depend on the processing

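The counts of members past the test (4, 4 and 0 of 7) stayed within 1.5 times under every alternative run, and Gcg, Insl5, Chga and Chgb passed in 19 of 19 alternatives in both comparisons with high-fat diet colon. Directions turned only for members that never passed in that comparison. With libraries scaled by epithelial genes, Pyy in high-fat diet against chow stood at 0.0237 and Tph1 at 0.1129 on the log2 scale. Leaving out each library in turn, Tph1 in high-fat diet against chow ranged from -1.4504 to 0.1419, Cck in berberine against high-fat diet from -0.4798 to 0.1927, and in berberine against chow Insl5 from -0.1737 to 0.405, Pyy from -0.1692 to 0.5007 and Chga from -0.1264 to 0.3249. Ratios to Chga were counted here over 7 members, with Chgb left out. No share over all genes was computed, so these counts are not read as a result about the members. The number whose groups did not overlap ranged from 3 to 5 in high-fat diet against chow, with 5 without chow replicate 2. In berberine against chow it ranged from 0 to 2, with 2 without berberine replicate 3 or without chow replicate 3 and 1 without chow replicate 1. Smaller groups overlap less readily whatever the values, and the cause of these changes was not tested. Sct in high-fat diet against chow passed with DESeq2 (adjusted p = 0.025) and without chow replicate 3 (edgeR adjusted p = 0.033).

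With the replicate number as a replicate block, the members past the test were 4, 4 and 0 again, Neurod1 in high-fat diet against chow no longer passed (edgeR adjusted p = 0.073) and Cck in berberine against high-fat diet stood at 0.0038. The deviations of same-numbered libraries from their group means correlated between -0.099 and 0.16, and those of libraries with other numbers between -0.219 and 0.16. These values show no sign of a pairing by number but cannot exclude one with 3 libraries a group.

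Library totals in place of TMM moved the median of all genes in high-fat diet against chow to 0.13 and turned the split of calls to 2818 higher and 1886 lower; epithelial scaling gave 4861 higher and 1042 lower, against 2199 and 2414. In berberine against chow 6 genes were higher and 1 lower, against 179 and 205 with DESeq2. Depth limits Cck and Neurod1 most.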
